A study of Mus musculus with 3 samples.

Results

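Transcripts of 3 transcription factor families of the surface ectoderm were examined: the AP-2 genes Tfap2a, Tfap2b, Tfap2c and Tfap2e, the Grainyhead-like genes Grhl1, Grhl2 and Grhl3, and the Ovo-like gene Ovol1. The members were all probe sets that the platform annotation paired with exactly 1 of these 8 symbols, which gave 12 of 28898 probe sets with a single gene symbol. Tfap2a, Tfap2c, Grhl2 and Ovol1 were measured by 2 probe sets each, and the other 4 genes by 1 each. RNA came from mammary cells with high surface CD49f (integrin alpha 6, a basal epithelial marker) and a high green reporter signal, sorted at embryonic day 14 from female Lgr5-IRES-GFP embryos, in which green fluorescent protein is expressed from the locus of the Wnt target gene Lgr5. The 3 arrays, replicates 1 to 3, each held the pooled female embryos of 1 litter, and they formed the only group, so all samples shared the reporter allele and the stage. The epidermis was digested together with the mammary gland, and 813 or 2000 cells were sorted per sample, without a label that says which sample had which number.

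AP-2 proteins bind GC-rich DNA as dimers and are known for their roles in surface ectoderm, neural crest, trophectoderm and breast epithelium. Grainyhead-like proteins activate genes of cell adhesion and of the epidermal barrier, and mice that lack Grhl2 or Grhl3 fail to close the neural tube. Ovo-like proteins are zinc finger repressors that act in epidermis and hair follicles and hold back genes of the mesenchymal state. By its title the series concerns p63 and how mammary cells lose multipotency, and the question here was which of these ectodermal factors gave a signal in the sorted progenitors and how steady that signal was over the litters.

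The values were log2 expression per probe set. Background was measured on the same arrays in 83 probe sets of 78 olfactory and vomeronasal receptor genes, whose 95th percentile set the threshold of an array (6.27 on replicate 1, 6.21 on replicate 2 and 6.20 on replicate 3). A probe set was called above background when its mean height over that threshold was greater than 0 in limma's moderated one-sided test, with a Benjamini-Hochberg adjusted p under 0.05 over all 28898 probe sets. Replicate 3 stood apart from the other arrays, with a median log2 value of 6.52 against 6.25 on replicate 1 and 6.25 on replicate 2, and the heights of the members without it are given with the litter comparison. The sort genes were both above background: Lgr5 stood 4.04 above the threshold and Itga6, which encodes CD49f, 4.14. Levels of single probe sets are not ranked against each other, because probe sets differ in their response. Heights over the threshold are set beside those of all probe sets or genes only as a description. The number of arrays limited the precision.

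All 8 genes had at least 1 probe set above background, and 11 of the 12 probe sets were called, where 47.2% of all probe sets and 52.2% of all genes were. Of 45 genes restricted to unrelated tissues, 12 (26.7%) were called as well, so a low height over this threshold is weak evidence of expression. The median height of the 12 over the threshold was 2.06, against 0.39 for all probe sets. No filter on low values was applied. Ovol1, Tfap2a, Grhl2 and Grhl3 each had a probe set more than 3 log2 units over the threshold. These 4 of the 8 genes were also called against both stricter backgrounds that were tried, where 29.9% and 31% of all genes were. The stricter backgrounds were the 95th percentile of 57 probe sets of genes restricted to unrelated tissues, against which 5 of the 12 probe sets passed where 25.3% of all did, and the brightest antigenomic control, against which 6 passed where 26.3% of all did. Tfap2b, Tfap2c, Tfap2e and Grhl1 were not called against either of them.

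**Figure D1:**
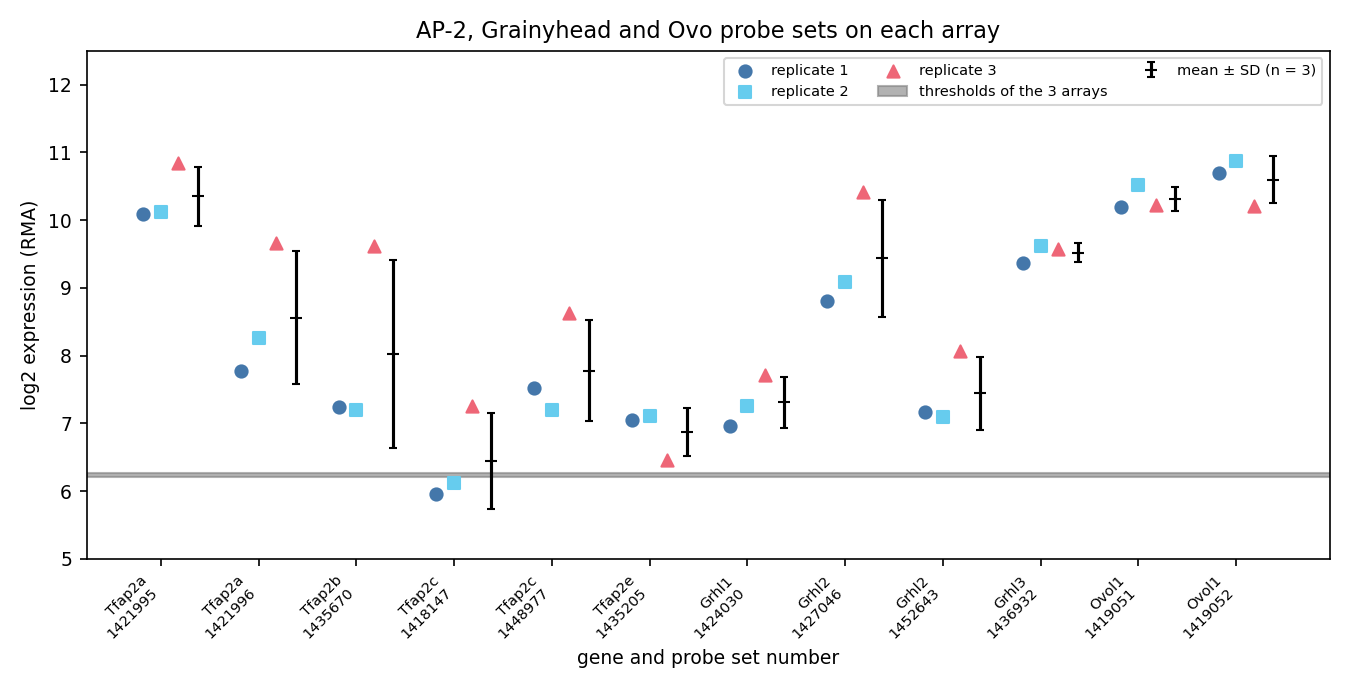
Log2 expression of the 12 probe sets (horizontal axis) on each of the 3 arrays, with the mean and SD in black and the receptor thresholds of the arrays as a grey band. Of the 12 probe sets, 11 lie above the band on all 3 arrays, as did 51.4% of all probe sets. Replicate 3 is the highest array for 8 of the 12, and it was the highest for 64.8% of all probe sets above background.

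Among the AP-2 genes, Tfap2a, which is needed for closure of the head and body wall in mice, was above background by both of its probe sets. Probe set 1421995_PM_at gave log2 values of 10.09 on replicate 1, 10.12 on replicate 2 and 10.85 on replicate 3, and later triplets keep this order. The mean was 4.12 above the threshold (95% confidence interval 3.59 to 4.66, adjusted p = 7.23e-05), with all 3 arrays far over the band and replicate 3 the highest. The other probe set, 1421996_PM_at, had 7.77, 8.26 and 9.66, a height of 2.33 (1.26 to 3.41, adjusted p = 0.00406). It too was above the threshold on every array, but the gap between the 2 probe sets was 2.32, 1.86 and 1.19 on the 3 arrays, so the size of the litter difference in Tfap2a depended on the probe set read.

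Tfap2b, a paralogue with known roles in kidney and neural crest, varied most over the litters. Its single probe set 1435670_PM_at gave 7.25, 7.20 and 9.62. The first 2 arrays lay close together about 1 unit over the threshold, and replicate 3 was far above both. The mean height was 1.79 with a wide interval (0.34 to 3.25, adjusted p = 0.0283), and without replicate 3 it was 0.98 (adjusted p = 1.48e-05). The fit without replicate 3 had 2 arrays and leaned on a variance moderated over all probe sets. Its smaller p is therefore not stronger evidence than that of the 3 arrays. The range of 2.42 was greater than that of 99.8% of the probe sets above background.

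Tfap2a and Tfap2b were both highest on replicate 3, as were 64.8% of all probe sets above background. The DNA before their transcription starts is shown as a description, and a link to the litters was not tested. It comes from the RefSeq promoter table (build GRCm38.p6). The 250 bases before the start are in lower case, with any match to the AP-2 motif GCCNNNGGC in capitals. Tfap2a has 2 listed starts, and the upstream one (chr13:40734921-40735170, minus strand) is printed. The Tfap2b window is chr1:19211804-19212053 on the plus strand.
Tfap2a: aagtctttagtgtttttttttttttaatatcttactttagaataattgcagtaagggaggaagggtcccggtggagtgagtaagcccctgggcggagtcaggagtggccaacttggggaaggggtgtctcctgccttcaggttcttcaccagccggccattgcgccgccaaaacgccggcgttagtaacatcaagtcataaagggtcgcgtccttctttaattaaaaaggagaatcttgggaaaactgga
Tfap2b: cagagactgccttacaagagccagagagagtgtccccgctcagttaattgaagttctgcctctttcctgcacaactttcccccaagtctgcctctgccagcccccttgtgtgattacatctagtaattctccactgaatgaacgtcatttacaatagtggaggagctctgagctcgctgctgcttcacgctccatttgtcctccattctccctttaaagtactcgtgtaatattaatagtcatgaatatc
Neither window holds the motif in this spacing, and other spacings were not searched. Their GC contents were 47.6% and 46.4%, that of the second Tfap2a window was 60.4%, and the median over 32851 windows of the same length was 52.4%.

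Tfap2c, which acts in trophectoderm and in mammary luminal cells, was the only gene with probe sets on both sides of the call. Probe set 1448977_PM_at had 7.52, 7.19 and 8.62 on replicates 1, 2 and 3, a height of 1.55 (0.71 to 2.40, adjusted p = 0.00746). Probe set 1418147_PM_at had 5.96, 6.12 and 7.25, which was below the threshold on replicates 1 and 2 and above it on replicate 3 (height 0.22, interval -0.59 to 1.02, adjusted p = 0.470). The 2 probe sets nevertheless differed between litters by a like amount: replicate 3 exceeded the mean of the other arrays by 1.26 and 1.22. Both carry the same sequence record in the annotation.

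Tfap2e is known from the olfactory bulb. Its probe set 1435205_PM_at had 7.05, 7.10 and 6.46 on replicates 1, 2 and 3, all above the threshold, with replicate 3 the lowest. The height was 0.65 (0.17 to 1.13, adjusted p = 0.0213). The call was lost without replicate 1 (adjusted p = 0.121) and without replicate 2 (0.157), and at the 99th percentile of the receptor probe sets (0.271). Among the 4 AP-2 members, Tfap2e alone was lower on replicate 3 than on both other arrays.

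The Grainyhead-like genes were all above background. Grhl3, a factor of skin barrier formation and wound repair, had 9.36, 9.62 and 9.58 on replicates 1, 2 and 3 (probe set 1436932_PM_at). The arrays lay within 0.26 of each other, the smallest range of the 12 probe sets, and the height was 3.29 (2.93 to 3.65, adjusted p = 4.85e-05). Grhl2, an activator of E-cadherin and claudin genes, had 8.81, 9.08 and 10.42 by probe set 1427046_PM_at, a height of 3.21 (2.26 to 4.15, adjusted p = 0.000839). Its second probe set 1452643_PM_at had 7.18, 7.09 and 8.06 and a height of 1.21 (0.55 to 1.88, adjusted p = 0.00745). Both Grhl2 probe sets were above the threshold on each array and highest on replicate 3.

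Grhl1, which regulates desmosomal cadherin genes and is needed for hair anchorage, had 6.97, 7.25 and 7.72 on replicates 1, 2 and 3 (probe set 1424030_PM_at). All 3 arrays were above the threshold, by 0.70 to 1.51, and the height was 1.09 (0.55 to 1.63, adjusted p = 0.00539). Against the tissue-restricted background and the antigenomic control its mean lay just under the threshold.

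The Grhl1 and Grhl3 windows are shown because Grhl1 holds the single AP-2 motif found and Grhl3 was the steadiest member over the litters. The Grhl1 window is the upstream one of 2 listed starts (chr12:24572037-24572286, plus strand), and the Grhl3 window is chr4:135573633-135573882 (minus strand). Capitals mark the motif.
Grhl1: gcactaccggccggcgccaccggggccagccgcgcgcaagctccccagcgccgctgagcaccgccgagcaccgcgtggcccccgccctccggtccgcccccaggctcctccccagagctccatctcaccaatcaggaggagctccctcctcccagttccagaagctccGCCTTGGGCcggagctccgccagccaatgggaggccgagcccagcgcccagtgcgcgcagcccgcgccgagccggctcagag
Grhl3: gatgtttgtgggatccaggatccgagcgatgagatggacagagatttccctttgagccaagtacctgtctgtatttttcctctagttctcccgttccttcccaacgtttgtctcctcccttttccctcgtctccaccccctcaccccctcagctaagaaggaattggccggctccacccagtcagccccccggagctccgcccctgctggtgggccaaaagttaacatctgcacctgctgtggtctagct
The match in Grhl1 begins 82 bases before the start. GCCNNNGGC reads the same on both strands and was found in 1 of 7 windows of the 5 members listed in the table, and in 13.7% of all 32851 windows. The Grainyhead motif AACCGGTT, which also reads the same on both strands, was in none of the 7 and in 0.116% of all windows. The Ovo motif CCGTTA, searched also as TAACGG, was in none of the 7 and in 2.18% of all.

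Ovol1, whose promoter is known to respond to beta-catenin and Lef1, was above background by both probe sets with narrow intervals. Probe set 1419052_PM_at had 10.70, 10.88 and 10.21 on replicates 1, 2 and 3, a height of 4.37 (3.94 to 4.80, adjusted p = 3.83e-05). Probe set 1419051_PM_at had 10.19, 10.51 and 10.22, a height of 4.08 (3.74 to 4.42, adjusted p = 2.75e-05). Replicate 2 was the highest array for both. The probe sets did not order replicates 1 and 3 alike, and without replicate 3 their heights were 4.55 and 4.11.

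**Figure D2:**
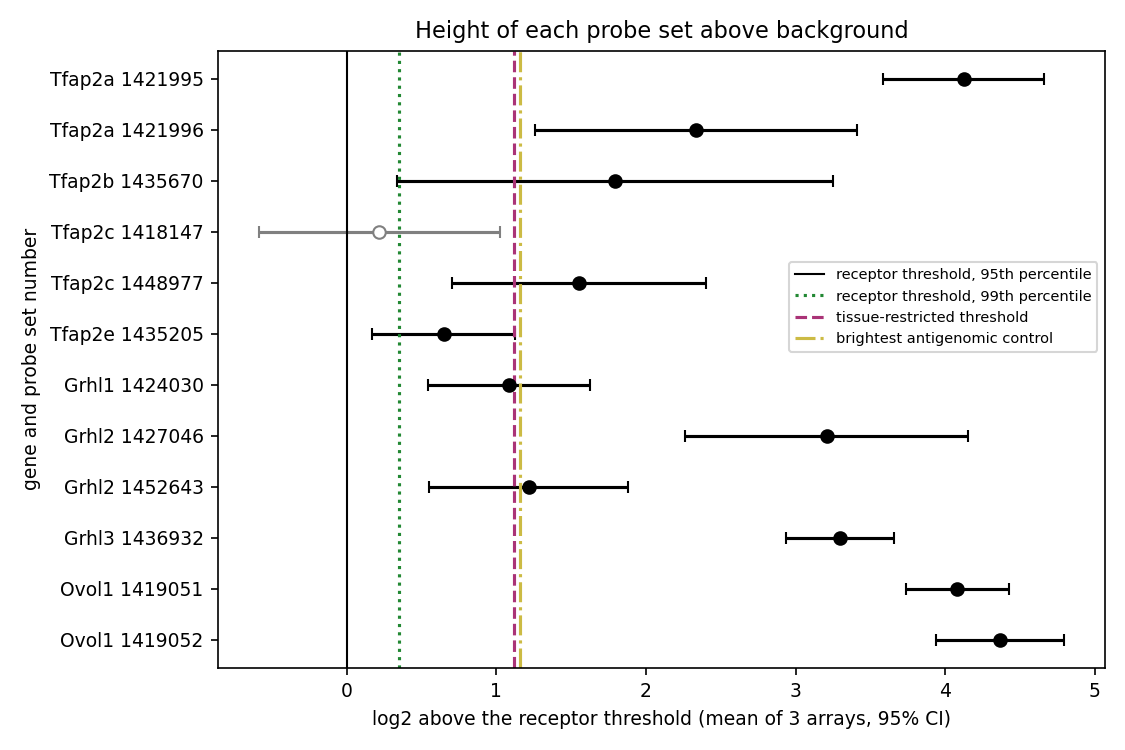
Mean log2 height over the receptor threshold with its 95% confidence interval for each of the 12 probe sets (rows); filled points were called above background, and vertical lines mark the other thresholds as means over the arrays. The intervals of Tfap2a 1421995, Tfap2a 1421996, Grhl2 1427046, Grhl3 and both Ovol1 probe sets lie to the right of all lines, and the open point is Tfap2c 1418147 at 0.22. All intervals are from the fit to the main threshold. In the fit to the tissue-restricted threshold Tfap2a 1421996 was not called (limma adjusted p = 0.0664).

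The members differed between the litters in a way that varied from gene to gene. Replicate 3 was the highest array for 8 of the 12 probe sets, replicate 2 for 4 and replicate 1 for none. Among the 11 called, the counts for replicates 3, 2 and 1 were 7, 4 and 0. Among all probe sets above background the shares, in the same order, were 64.8%, 15.0% and 20.2%. The counts for replicate 3 are thus near its share of all such probe sets. The size of the difference was less common: 5 of the 12 exceeded the mean of replicates 1 and 2 by at least 1 log2 unit on replicate 3 (4 of the 11 called), against 11.1% of all probe sets above background. These were Tfap2b (2.40), Tfap2a 1421996 (1.65), Grhl2 1427046 (1.47), Tfap2c 1448977 (1.26) and Tfap2c 1418147 (1.22). The remaining probe sets of Tfap2a and Grhl2 and that of Grhl1 differed the same way by 0.75, 0.93 and 0.61. Grhl3 (0.08) was level, and Ovol1 (-0.58 and -0.13) and Tfap2e (-0.61) went the other way.

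Each litter was measured on 1 array, so these differences carry no test, and litter, number of sorted cells, amplification and array cannot be told apart. Over all probe sets above background, replicate 3 exceeded the others by a median of 0.29. When the 3 arrays were quantile normalized, that median became -0.09 and each member shifted down: Tfap2b to 1.99, Tfap2a 1421996 to 1.22, Grhl2 1427046 to 1.05, and both Tfap2c probe sets to under 1 (0.86 and 0.92). Then 3 of the 12, all of them called, reached 1 log2 unit, against 3.5% of all probe sets above background. Grhl3 became negative (-0.35), and Ovol1 stood at -0.55 and -0.98.

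Without replicate 3 the same 11 probe sets were called, where 51.5% of all were. The height of Tfap2a was then 3.86 by probe set 1421995 and 1.77 by 1421996. For Tfap2b it was 0.98, for Tfap2c 1.12 by 1448977 and -0.20 by 1418147, and for Tfap2e 0.84. It was 0.87 for Grhl1, 2.71 and 0.89 for Grhl2 by 1427046 and 1452643, and 3.25 for Grhl3. The height of Tfap2b was the one called value that moved by more than 1.5 times.

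**Figure D3:**
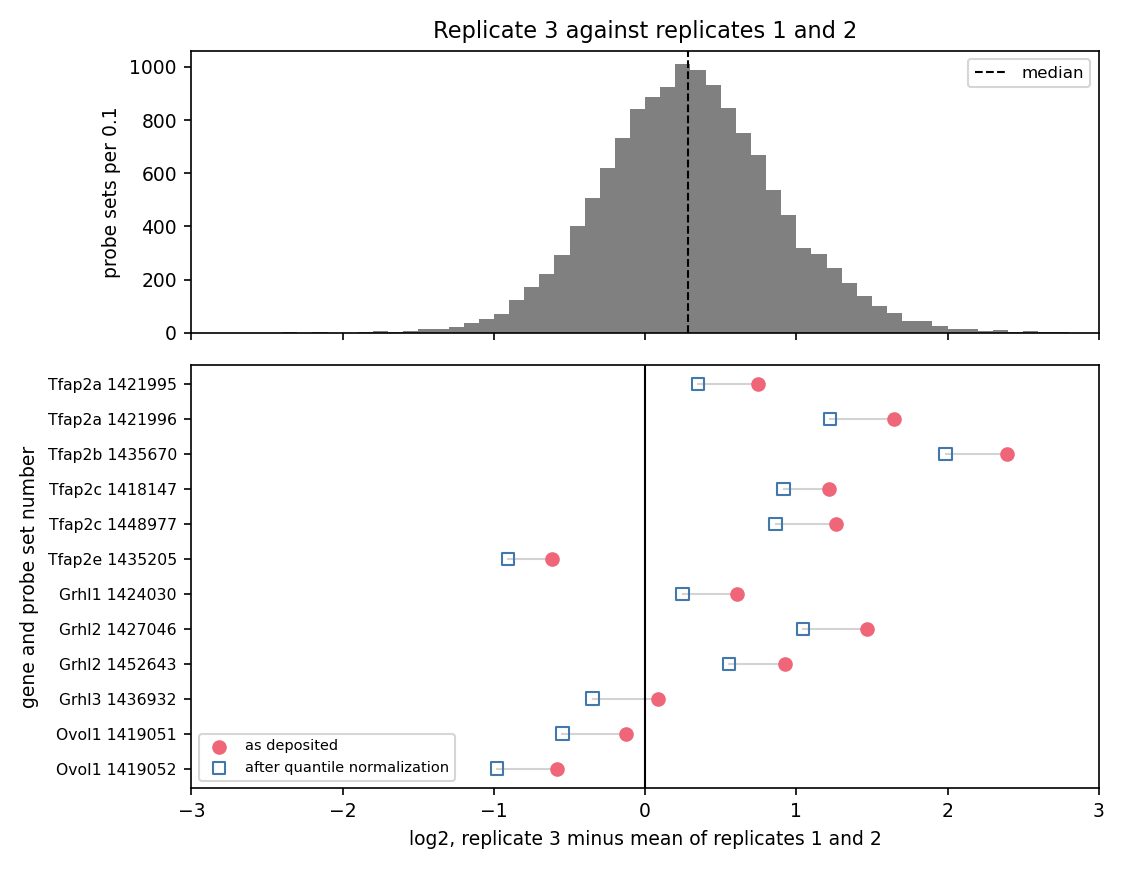
Upper panel: number of probe sets above background by their log2 difference between replicate 3 and the mean of replicates 1 and 2, with the median dashed. Lower panel: the same difference for the 12 probe sets, as deposited (filled) and after quantile normalization (open); Tfap2b reaches 2.40, while Tfap2e and both Ovol1 probe sets lie below 0.

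Marker lists also differed between the arrays. Of 9 measured genes of a basal list, 8 were higher on replicate 3 than the mean of the other arrays. The median difference was 0.51, or 0.16 after quantile normalization. The difference varied within the list, with 0.03 for Krt5, 0.24 for Krt14, 0.68 for Itga6, 0.96 for Col17a1 and -0.02 for Itgb4, the 1 gene that was not higher. Of all genes 67.9% were higher there, with a median of 0.22, or -0.10 after quantile normalization. Of 10 dermal mesenchyme genes, 3 were higher, with a median of -0.14, or -0.30 after quantile normalization. Of 12 suprabasal and periderm genes, 3 were higher, with a median of -0.16, or -0.44 after quantile normalization. Only 4 of these 12 were above background, so the median rested mostly on genes that were not called. Within this list Krt10 differed by 1.86 and Krt4, which was not called, by -3.11. Of 8 genes each, 5 neural crest, 4 endothelial and 3 leukocyte genes were higher, with medians of 0.36, -0.009 and -0.17. After quantile normalization these medians were 0.02, -0.27 and -0.44. The part of cell composition in the members' litter differences was not tested.

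Relatives outside the 8 genes were mostly not above background, where 52.2% of all genes were above it. Of 5 measured, only Ubp1, a widely expressed gene of the related CP2 branch, was called (9.30 ± 0.60 log2, SD, n = 3, adjusted p = 0.000360). Tfap2d, the remaining AP-2 gene, had 6.83, 6.87 and 5.86 on replicates 1, 2 and 3 and was not called (adjusted p = 0.273), with replicate 3 under its threshold. Ovol2, the paralogue of Ovol1, had 5.78, 6.34 and 5.97 and was not called (adjusted p = 1.00). The CP2 genes Tfcp2 (7.12 ± 1.03) and Tfcp2l1 (4.80 ± 0.55) were not called either. The 3 arrays of Tfcp2 gave 6.64, 6.42 and 8.30. The count of called relatives was 3 of 5 without replicate 3 and 2 without replicate 1 or replicate 2.

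AP-2 proteins act with partner proteins, and 4 of 7 measured partner genes were above background. The coactivator gene Crebbp stood at 11.39 ± 0.19 (SD, n = 3), Cited2, which encodes a coactivator adaptor of AP-2, at 8.69 ± 0.47, and Kctd1, which encodes an AP-2 repressor, at 8.88 ± 0.46. Myc, whose product binds AP-2, stood at 8.78 ± 0.20. Cited1 (5.25 ± 0.13), Cited4 (5.24 ± 0.24) and Wwox (6.33 ± 0.33) were not called. The partner list had 57.1% of its genes called, close to the 52.2% of all genes.

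Genes with known AP-2 sites or regulation were above background in 11 of 13 measured cases, where 52.2% of all genes were. Their median height was 2.89, against 0.65 for all genes. The list began with the basal keratin genes Krt5 and Krt14, Trp63, which encodes p63, and the growth factor receptor gene Egfr (8.01, 8.23 and 9.63 on replicates 1, 2 and 3). Trp63 was called by 3 of its 4 probe sets and Egfr by 3 of 6. Kit, a receptor gene of melanocytes and mast cells, had 4.89, 4.85 and 6.55, and Hoxa2, an AP-2 target of neural crest, had 4.80 ± 0.16 (SD, n = 3). Neither was called. Because basal keratin and p63 genes head this list and the cells were sorted as basal, its count is not independent of the sort.

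Grainyhead target genes were above background in 14 of 18 measured cases (77.8%, against 52.2% of all genes), with a median height of 1.60. The E-cadherin gene Cdh1 had 7.02, 7.62 and 8.36 on replicates 1, 2 and 3. The tight junction genes Cldn3 (7.13 ± 0.27, SD, n = 3) and Cldn4 (9.68 ± 0.44) and the adhesion gene Epcam (10.31 ± 0.40) were called as well. Cldn3 and Epcam were each called by 1 of their 2 probe sets. The membrane gene Prom2 (5.69, 5.76 and 7.85), the protease gene Prss8 (6.22 ± 0.48) and the transglutaminase gene Tgm5 (5.31 ± 0.12) were not. Against the tissue-restricted background 8 of the 18 were called, and against the antigenomic control 9, where 29.9% and 31% of all genes were.

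Genes that Ovo proteins repress, and genes of the mesenchymal state, were above background in 9 of 9 cases, where 52.2% of all genes were. Ovol1 stood high in the same pools. Zeb1 (8.91 ± 0.25, SD, n = 3), Zeb2 (9.06 ± 0.60), Snai1 (7.20 ± 0.27) and Snai2 (7.61 ± 0.16) encode repressors of epithelial genes. For Zeb2 the arrays gave 9.50, 9.32 and 8.38. Against either stricter background 6 of the 9 were called, where 29.9% and 31% of all genes were. Each array measured a pool of cells, so expression in the same cell, fewer cells of a type and less RNA per cell cannot be told apart.

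Of 14 measured factors of the surface ectoderm 8 were above background (57.1%, against 52.2% of all genes). Trp63 (10.53 ± 0.39, SD, n = 3) and the Krüppel-like factor gene Klf4 (10.06 ± 0.10) were called. Klf5 had 7.85, 8.35 and 9.42, and Gata3, a luminal and epidermal factor gene, had 7.73, 7.96 and 9.25 on replicates 1, 2 and 3, and both were called. Sp6 (5.26 ± 0.04), Sp8 (5.55 ± 0.08) and Dlx3 (6.47 ± 0.12), factor genes of limb ectoderm, teeth or hair, were not called.

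Markers of other cell types of the skin were called unevenly. Of 10 dermal mesenchyme genes 9 were above background, where 52.2% of all genes were. The count was also 9 against both stricter backgrounds, where 29.9% and 31% of all genes were called. In list order the called genes began with the collagen genes Col1a1 (12.99 ± 0.15, SD, n = 3), Col1a2 (7.99 ± 0.09) and Col3a1 (12.76 ± 0.13). The proteoglycan gene Dcn (11.43 ± 0.07) was also among them. Pdgfra (4.89 ± 0.55) was the one not called. Of 8 neural crest and melanocyte genes 2 were called, Sox10 (8.02 ± 0.22, by 2 of its 3 probe sets) and Pmel (7.33 ± 0.26). The melanin synthesis genes Dct (6.36 ± 0.58), Tyr (5.16 ± 0.10) and Tyrp1 (4.63 ± 0.22) were not. Against either stricter background 1 of the 8 was called.

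All 9 genes of the basal list were called, where 52.2% of all genes were. Among 12 genes of suprabasal epidermis and periderm, where Grhl3 and Ovol1 are also known to act, 4 were called: Krt10 (6.94, 7.70 and 9.18 on replicates 1, 2 and 3), Sbsn (7.54 ± 0.29, SD, n = 3), Tgm3 (6.94 ± 0.08) and Sfn (8.77 ± 0.30). Krt1 (6.66 ± 0.34), Krt4 (8.96, 8.26 and 5.50) and Krt13 (5.46 ± 0.11) were not. Sbsn was called by 2 of its 3 probe sets. The count of the list was 7 of 12 without replicate 3. It was 1 of 12 against either stricter background, where 29.9% and 31% of all genes were called. Endothelial and leukocyte lists had 2 of 8 called each, namely Pecam1 (8.12, 8.30 and 6.47) and Egfl7 (7.29 ± 0.40), and Cd68 (8.83 ± 0.26) and Fcer1g (7.29 ± 0.45). The endothelial genes Cdh5 (5.81 ± 0.27), Kdr (6.35 ± 0.35) and Tek (5.82 ± 0.49) and the leukocyte genes Ptprc (4.03 ± 0.20), Csf1r (6.47 ± 0.14) and Tyrobp (5.81 ± 0.70) were not called. Without replicate 3 the counts were 3 of 8 endothelial and 4 of 8 leukocyte genes, and against either stricter background 0 and 1. The part of these cell types in the members' signal was not tested.

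**Figure D4:**
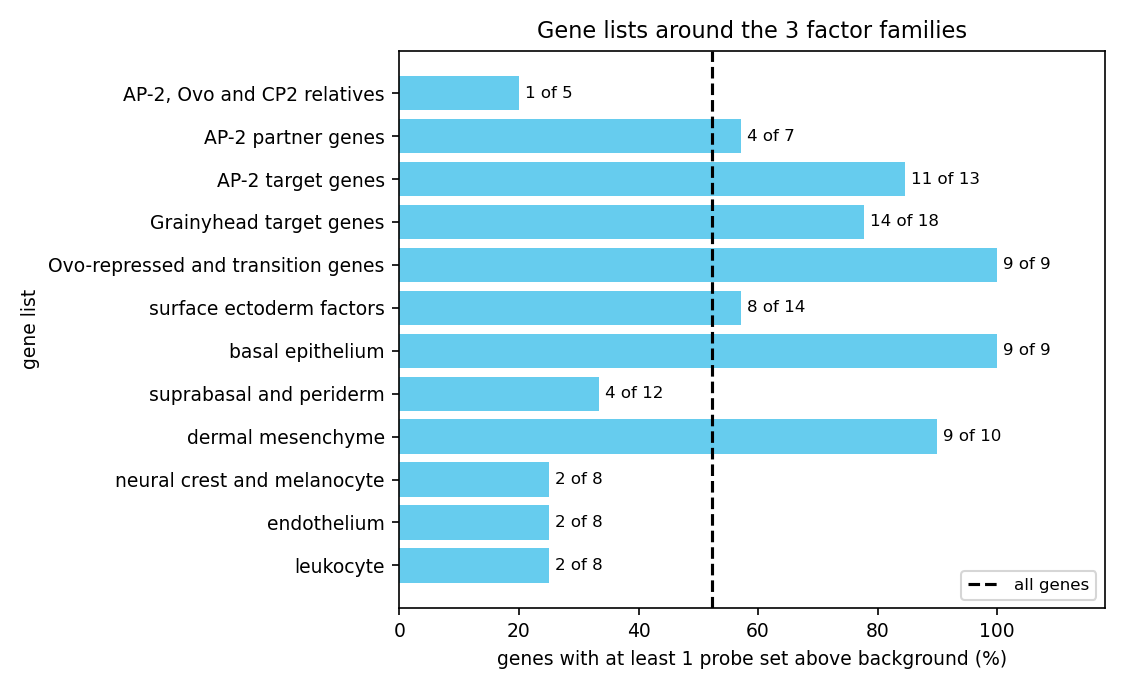
Share of measured genes with at least 1 probe set above background (horizontal axis, percent) in each gene list, with the counts beside the bars and the share of all genes, 52.2%, as a dashed line. Basal epithelium and the Ovo-repressed list reach 9 of 9 genes, and the neural crest, endothelial and leukocyte lists 2 of 8.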

How the data were processed

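The deposited values were log2 expression, one per probe set. RMA and the affy package stand in the submitters' processing notes, with neither version nor settings. Per the labels' protocols, whole transcriptome amplification of the cDNA ran for 25 cycles before hybridization to Affymetrix arrays. The values of replicate 3 had another distribution than those of replicates 1 and 2, so joint normalization of the 3 arrays is not shown. RMA in general compresses differences of weak probe sets.

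The table held 45141 probe sets, of which 104 were controls. A platform annotation gave 28898 probe sets 1 gene symbol and 551 several, and 15692, controls included, had no listed gene. Each array's threshold, the 95th percentile of the receptor probe sets, was subtracted. An intercept was then fitted per probe set in limma 3.58.1 (R 4.3.3), with variances moderated along a trend on mean expression, and a one-sided p for a height over 0 was adjusted by Benjamini-Hochberg over 28898 probe sets. Intervals are 95% moderated intervals and treat the threshold as known. A gene was called when at least 1 of its probe sets was, and list values come from its probe set with the highest mean. P-values rest on the spread between the 3 litters as moderated over all probe sets, so they do not measure a probe set's own spread alone.

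All members were named, as were all relatives and AP-2 partners, and of every other list the first 4 above background and the first 3 not, in list order. The members and lists were chosen with earlier results of these data known. No gene was named for a like pattern, since 3 arrays hold too few points. Some listed genes were not analysed here. On simulated data for the test of probe sets above background (28898 probe sets), 44%, 72%, 88% and 98% of 50 probe sets placed 0.25, 0.5, 1 and 2 log2 units above the threshold were called. Tables and plots were made with Python 3.11.15, pandas 2.3.3, numpy 2.4.6 and matplotlib 3.10.9. The 13 alternatives changed the threshold, the background set, the scaling, the variance model, the filter, the probe sets of a gene or the replicates.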

Additional observations from a re-analysis of the deposited data

How the results depend on the processing

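The threshold decided the counts, with 5 and 6 of the 12 member probe sets called against the tissue-restricted background and the brightest antigenomic control, 4 of the 8 genes under either, and 7302 and 7610 of all probe sets. With 1 probe set per gene, 8972 of 17097 were called, a lower count because fewer were tested. Leaving out 1 replicate gave 10 to 11 member probe sets, 7 to 8 member genes and 12753 to 14869 of all probe sets. The mean height changed sign for Tfap2c 1418147 at the 99th percentile (-0.14), against the tissue-restricted background (-0.90) and the antigenomic control (-0.94), and ranged from -0.20 to 0.48 with 1 replicate left out. It also changed sign for Tfap2e (-0.47 and -0.51) and Grhl1 (-0.029 and -0.070) against the tissue-restricted background and the antigenomic control. Tfap2b (0.68 and 0.64, adjusted p = 0.432 and 0.421), Tfap2c 1448977 and Grhl2 1452643 lost their call against both of these, and Tfap2a 1421996 against the first alone (1.22, adjusted p = 0.0664). Over all alternatives, single probe sets kept direction and call in 122 cases, lost only the call in 10 and changed sign in 8. Among those that changed sign, Tfap2e and Grhl1 also lost the call. The counts of arrays on which members were highest did not change with the threshold subtracted or after quantile normalization. Quantile normalization moved the median of replicate 3 by -0.19. Context lists were recomputed under all alternatives after seeing the data. No paired analysis was possible because the series has 1 group.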

Other observations

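Beside the 8 genes, the lists around them held 116 measured genes, of which 70 were above background, where 52.2% of all genes were. On replicate 3, 8 of these 70 exceeded the mean of replicates 1 and 2 by at least 1 log2 unit, against 9.20% of all genes above background. They were Ubp1, Egfr, Cdh1, the epithelial splicing factor gene Esrp1, Klf5, Gata3, the epidermal kinase gene Ripk4 and Krt10. Zeb2 and Pecam1 were lower on replicate 3 by as much, against 1.29% of all genes above background. In array order, from replicate 1 to replicate 3, Esrp1 gave 8.15, 8.23 and 9.62 log2, and Ripk4 gave 8.44, 9.38 and 10.24. Esrp1 and Ripk4 were named after their values were seen. These are descriptions of single arrays without a test.

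Genes restricted to unrelated tissues also gave calls, 12 of 45 (26.7%, against 52.2% of all genes). The sperm genes Prm1 (8.02 ± 0.08, SD, n = 3) and Tnp2 (6.76 ± 0.31), Gad2 of inhibitory neurons (7.66 ± 0.46) and the insulin gene Ins2 (7.02 ± 0.25) were among them, and Prm2 (6.20 ± 0.21), Tnp1 (4.72 ± 0.19) and Slc17a7 (5.03 ± 0.08) were not.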
